A study of Mus musculus with 16 samples.

Results

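Lipid-associated macrophages are described here by 10 marker genes, Trem2, Gpnmb, Cd9, Spp1, Mmp12, Itgax, Atp6v0d2, Cd68, Lipa and Ctss. They were taken by symbol from the count tables of liver and of white adipose tissue, where they are 10 of 22322 genes. All 10 passed the filter on low counts in both tissues, so none was lost to it. The symbols name a macrophage state, and in bulk tissue other cells can also carry these transcripts, so the label was checked against other marker lists below. Halofuginone, an inhibitor of prolyl-tRNA synthetase, was compared with vehicle in DIO (diet-induced obese) mice that received intraperitoneal injections every 2 days for 8 weeks. The halofuginone groups (labelled H100) got 100 μg/kg and the vehicle groups (labelled HFD) got 0 μg/kg. Both arms were DIO mice, and no lean group is among the samples used here. The labels do not give strain, age, sex or fat depot. Liver had 5 vehicle and 5 halofuginone libraries, and fat had 3 and 3. The labels do not say that each library came from its own animal, so p-values measure only the spread between these libraries.

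Macrophages in obese fat gather around dying adipocytes, take up their lipid and break it down in lysosomes. The surface receptor TREM2 senses lipid and signals through the adaptor TYROBP, and cells in this state carry much GPNMB, CD9, osteopontin and lysosomal protein. Similar cells collect in fatty liver beside the resident Kupffer cells. The genes are taken below in the order of their roles, first the surface proteins (Trem2, Gpnmb, Cd9, Itgax), then the secreted ones (Spp1, Mmp12), then the lysosomal ones (Lipa, Ctss, Cd68, Atp6v0d2).

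Promoter sequences of 9 of the 10 genes were taken from RefSeq (build GRCm38.p6), as 11 windows from 250 bases before to 50 after a start site, since Spp1 and Mmp12 each have a pair of start sites. They were searched on both strands for 4 motifs, namely the E-box CACGTG bound by MiT/TFE factors, the response element TGATGNAA bound by C/EBP and ATF4 dimers, the AP-1 site TGANTCA and the PU.1 core GAGGAA. The E-box and the C/EBP-ATF element were found in 0 of the 11 windows, against 7.15% and 3.97% of all 32851 RefSeq mouse windows of that length. The PU.1 core was found in 6 of the 11 windows (28.3% of all windows) and the AP-1 site in 5 of the 11 (7.81% of all windows). The 5 windows with the AP-1 letters are shown from 170 bases before to 20 after the start site, because their genes include Itgax and Mmp12, which differed most between the groups in fat. Capitals mark matches to the AP-1 and PU.1 letters on either strand. They lie at chr17:48346231-48346420 (Trem2, plus strand), chr6:49036348-49036537 (Gpnmb, plus strand), chr9:7347204-7347393 (Mmp12, plus strand), chr7:128129380-128129569 (Itgax, plus strand) and chr11:69666151-69666340 (Cd68, minus strand). A match to letters is a description of the sequence, not a binding site.
Trem2: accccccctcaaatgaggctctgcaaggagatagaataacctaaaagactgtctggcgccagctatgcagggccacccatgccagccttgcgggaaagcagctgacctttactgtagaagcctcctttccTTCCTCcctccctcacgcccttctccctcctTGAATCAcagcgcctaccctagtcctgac
Gpnmb: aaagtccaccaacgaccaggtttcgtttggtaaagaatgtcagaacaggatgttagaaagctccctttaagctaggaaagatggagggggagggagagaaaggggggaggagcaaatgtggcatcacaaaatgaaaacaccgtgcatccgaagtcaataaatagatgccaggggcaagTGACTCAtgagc
Mmp12: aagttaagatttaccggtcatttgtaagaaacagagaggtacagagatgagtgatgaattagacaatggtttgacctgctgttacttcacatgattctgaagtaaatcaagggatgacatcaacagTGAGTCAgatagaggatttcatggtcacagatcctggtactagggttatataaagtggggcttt
Itgax: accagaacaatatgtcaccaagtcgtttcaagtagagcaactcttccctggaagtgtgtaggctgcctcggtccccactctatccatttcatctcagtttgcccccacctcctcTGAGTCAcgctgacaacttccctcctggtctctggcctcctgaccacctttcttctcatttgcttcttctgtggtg
Cd68: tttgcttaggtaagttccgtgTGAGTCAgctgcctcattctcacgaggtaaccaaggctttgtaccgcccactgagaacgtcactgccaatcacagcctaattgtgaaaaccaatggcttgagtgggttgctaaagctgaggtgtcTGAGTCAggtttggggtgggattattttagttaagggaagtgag

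The first AP-1 match begins 9 bases before the start site in Trem2, 44 before in Mmp12, 56 before in Itgax and 149 before in Cd68, which has another 24 bases before. In Gpnmb it begins at base 9 after the start site.

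Library totals were 20309956 to 31980683 counts in liver and 17070614 to 21387799 in fat. The tissues carried their own markers, since the adipocyte hormone gene Adipoq was at 991 to 2543 CPM (counts over each library's total, with TMM factors) in fat and under the 3-count limit that a count of 0 allows in every liver. A pair of libraries stood apart. In liver, the library labelled halofuginone replicate 1 did not show the amino acid stress response of the other halofuginone libraries. The sum of 6 genes of that response was 188 CPM there, 718 to 884 CPM in halofuginone replicates 2 to 5 and 168 to 219 CPM in vehicle. That library lay inside or above the vehicle range in 8 of the marker genes. It lay below that range in Atp6v0d2 (1.54 CPM, vehicle 3.59 to 5.62) and Spp1 (23.4 CPM, vehicle 34.8 to 52.8). In fat, vehicle replicate 3 had the epididymis gene Crisp1 at 63.6 CPM, against 0.0555 to 1.76 CPM in the other 5 libraries, and the adipocyte list was lower there. The main results that rest on either library are given with and without it.

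On the deposited FPKM scale, which corrects for gene length, the order of mean levels in vehicle liver was Lipa (63.8 ± 7.52 FPKM, SD, n = 5), Ctss (44.4 ± 5.61), Spp1 (27.0 ± 5.04), Cd68 (16.9 ± 3.37), Cd9 (12.6 ± 2.13), Mmp12 (9.88 ± 6.38), Gpnmb (5.44 ± 2.24), Trem2 (3.06 ± 1.18), Atp6v0d2 (1.76 ± 0.292) and Itgax (0.884 ± 0.143). Neighbours from Cd68 to Atp6v0d2 in that order overlapped between libraries. In vehicle fat the order was different, with the macrophage elastase Mmp12 first at 2232 ± 2708 FPKM (SD, n = 3), then Ctss (1263 ± 684), Gpnmb (1216 ± 687), Cd68 (658 ± 191), Lipa (267 ± 117), Trem2 (240 ± 80.7), Spp1 (228 ± 305), Cd9 (226 ± 98.4), Atp6v0d2 (174 ± 116) and Itgax (99.97 ± 42.5). All neighbours there overlapped except Cd68 and Lipa. The first place of Mmp12 rests on vehicle replicate 3 (5350 FPKM, against 878 and 468 in replicates 1 and 2), and without that library Ctss (884) and Gpnmb (827) led and Mmp12 (673) was at the third place. Together the 10 genes took 0.0334 to 0.0446% of all counts in vehicle liver and 0.613 to 2.25% in vehicle fat. Under halofuginone Ctss (1220 FPKM) and Gpnmb (998) led in fat, as in vehicle without replicate 3, and Mmp12 was at the fifth place with 268 FPKM.

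In liver, 5 of the 10 genes fell under halofuginone and 0 rose at an adjusted p under 0.05 (edgeR's quasi-likelihood test, Benjamini-Hochberg adjustment over 12311 genes). Over all genes tested, 10.5% were called lower and 12.7% higher. The genes that fell were Gpnmb, Spp1, Mmp12, Lipa and Atp6v0d2. The median log2 fold change of the 10 was −0.73, against 0.017 for all genes tested. Without the library labelled halofuginone replicate 1, 8 of the 10 were called lower, where 21.6% of all genes were called lower. DESeq2 called 7 of the 10 lower, beside 14.1% of all genes. Leaving out 1 library at a time raised the edgeR adjusted p to at most 0.0123 for Atp6v0d2, 0.0590 for Mmp12, 0.0608 for Gpnmb, 0.0812 for Lipa and 0.0862 for Spp1, and without halofuginone replicate 3 or 5 the count of called genes was 1. Since this is bulk tissue, fewer cells of a type and less RNA per cell cannot be told apart in any of these values.

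**Figure D1:**
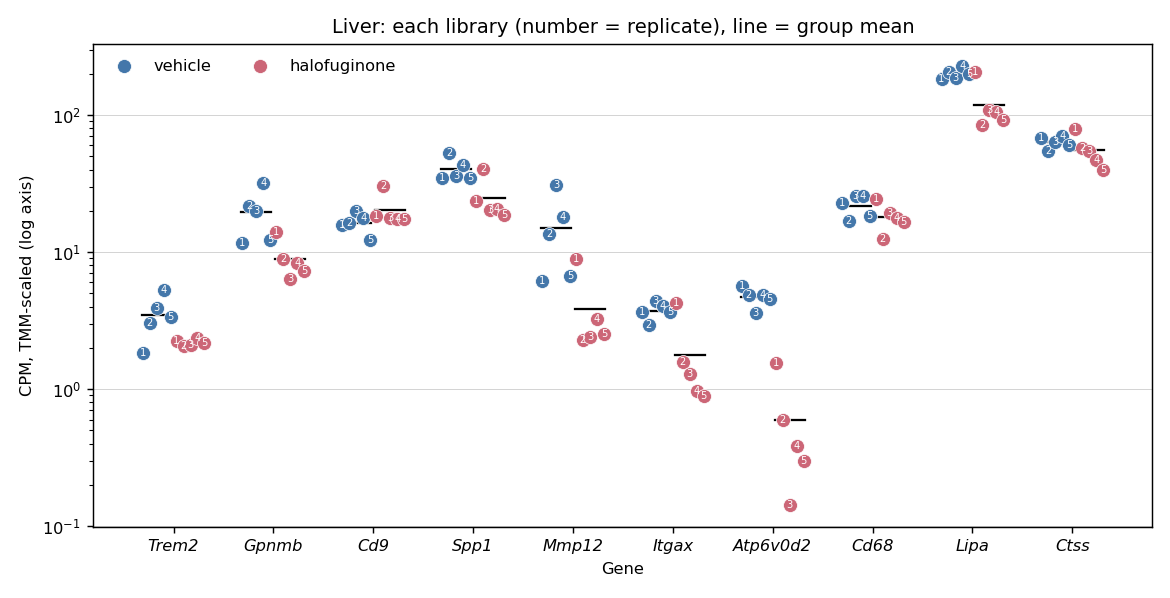
Level of each of the 10 genes in every liver library, as CPM on a log axis, with vehicle in blue and halofuginone in red, the replicate number inside each point and a line at the group mean. Replicate 1 is the highest halofuginone library in 7 genes, and only Atp6v0d2 has all 5 halofuginone libraries below all 5 vehicle libraries.

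Among the surface proteins in liver, Gpnmb (ENSMUSG00000029816), a transmembrane glycoprotein of lysosome-rich phagocytes, was at 11.6, 21.6, 19.995, 32.0 and 12.2 CPM in vehicle replicates 1 to 5 and at 14.0, 8.83, 6.37, 8.26 and 7.22 CPM under halofuginone. Only halofuginone replicate 1 lay inside the vehicle range. Gpnmb fell by 1.13 on the log2 scale (SE 0.30, edgeR adjusted p 0.0228). Trem2 (ENSMUSG00000023992), the lipid receptor, was at 1.82, 3.06, 3.92, 5.27 and 3.34 CPM in vehicle and at 2.24, 2.05, 2.11, 2.35 and 2.16 CPM under halofuginone. The halofuginone libraries were close to each other, and vehicle replicate 1 was the lowest of all 10. The log2 fold change of Trem2 was −0.67 (SE 0.24) with an edgeR adjusted p of 0.0582, which missed the threshold, and it was 0.0435 without the library labelled halofuginone replicate 1.

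Itgax (ENSMUSG00000030789), which encodes the integrin CD11c, was at 3.64, 2.96, 4.38, 4.03 and 3.67 CPM in vehicle liver and at 4.22, 1.57, 1.29, 0.965 and 0.894 CPM under halofuginone. Replicates 2 to 5 were all below vehicle and replicate 1 was above 4 of the 5 vehicle libraries. Over all 10 libraries the log2 fold change was −1.09 (SE 0.38, edgeR adjusted p 0.0554), and it was −1.68 (SE 0.20, edgeR adjusted p 0.000111) without that library. The 8 dendritic cell genes summed to 8.34 to 10.1 CPM in vehicle liver and 6.60 to 9.49 CPM under halofuginone. Of these, 4 of 6 tested were called lower without replicate 1 and 0 higher. Over all 12422 genes tested then, 2684 were called lower and 2628 higher. The part of dendritic cells in the level of Itgax was not tested. Cd9 (ENSMUSG00000030342), a tetraspanin found on many cell types, was the only one of the 10 with a positive estimate in liver. It was at 12.3 to 19.9 CPM in vehicle and at 18.5, 30.6, 17.7, 17.5 and 17.5 CPM under halofuginone, and its estimate of 0.32 (log2, SE 0.18, edgeR adjusted p 0.215) did not pass. Halofuginone replicate 2 was the high one. Bile duct cells also express Cd9 and Spp1, and 6 of their marker genes summed to 10.1 CPM in halofuginone replicate 2, 3.53 to 4.71 CPM in the other halofuginone libraries and 5.78 to 7.50 CPM in vehicle. Of those 6, Krt19, Krt7 and Epcam averaged 0.918, 0.621 and 1.65 CPM in vehicle (n = 5). In halofuginone replicates 2 to 5 (n = 4) they averaged 0.536, 0.552 and 1.34 CPM. These averages pool replicate 2 with the others, so they do not show which of the 6 genes raised the sum in replicate 2. The same library was also high in 6 neutrophil genes, which summed to 19.2 CPM there. They summed to 4.44 to 7.20 CPM in the other halofuginone libraries and 5.75 to 10.7 CPM in vehicle. The part of bile duct cells or neutrophils in the level of Cd9 was not tested.

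Of the secreted proteins in liver, Mmp12 (ENSMUSG00000049723) was at 6.14, 13.5, 30.9, 17.9 and 6.72 CPM in vehicle and at 8.84, 2.27, 2.40, 3.24 and 2.53 CPM under halofuginone. It had the widest vehicle spread of the 10, and again halofuginone replicate 1 alone reached the vehicle range. Mmp12 fell by 1.98 on the log2 scale (SE 0.51, edgeR adjusted p 0.0218), or 3.94-fold. Spp1 (ENSMUSG00000029304), which encodes osteopontin, was at 35.0, 52.8, 35.8, 42.9 and 34.8 CPM in vehicle and at 23.4, 40.2, 20.3, 20.5 and 18.6 CPM under halofuginone. Here replicate 2, not replicate 1, reached the vehicle range. Spp1 fell by 0.71 on the log2 scale (SE 0.21, edgeR adjusted p 0.0343).

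The largest change was in a lysosomal gene. Atp6v0d2 (ENSMUSG00000028238), a V-ATPase subunit enriched in osteoclasts and some macrophages, was at 5.62, 4.86, 3.59, 4.85 and 4.56 CPM in vehicle liver and at 1.54, 0.596, 0.143, 0.386 and 0.298 CPM under halofuginone. The halofuginone values rest on 31, 16, 4, 10 and 8 counts. It was the only one of the 10 whose groups did not overlap in liver, as did 6.55% of all genes in the lower direction and 5.13% in the higher one. Atp6v0d2 fell by 3.05 on the log2 scale (SE 0.44, edgeR adjusted p 0.00332), or 8.27-fold. Its paralog Atp6v0d1, the subunit of most other cells, had a log2 fold change of −0.17 (edgeR adjusted p 0.248) at 67.9 ± 8.50 CPM in vehicle (SD, n = 5).

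Lipa (ENSMUSG00000024781), the acid lipase that frees fatty acids and cholesterol in lysosomes, was at 182, 205, 185, 228 and 198 CPM in vehicle liver and at 205, 84.5, 108, 105 and 92.5 CPM under halofuginone. Replicates 2 to 5 lay far below vehicle and replicate 1 lay inside its range. Lipa fell by 0.75 on the log2 scale (SE 0.22, edgeR adjusted p 0.0329), and by 1.05 (SE 0.11) without replicate 1. Hepatocytes also express Lipa, so the liver value is not specific to macrophages. The sum of 6 hepatocyte genes was 107819 to 122959 CPM in vehicle and 40984 to 102985 CPM under halofuginone. Of these 6, 1 was called lower and 1 higher. The part of hepatocytes in the level of Lipa was not tested. Cd68 (ENSMUSG00000018774), a glycoprotein of macrophage endosomes, was at 16.9 to 25.8 CPM in vehicle and 12.5 to 24.4 CPM under halofuginone, and the protease Ctss (ENSMUSG00000038642) at 54.3 to 70.4 and 39.9 to 79.4 CPM. Both ranges overlapped. Their log2 fold changes were −0.27 (SE 0.18, edgeR adjusted p 0.269) and −0.19 (SE 0.16, edgeR adjusted p 0.422), and that of Ctss was −0.37 (edgeR adjusted p 0.0264) without replicate 1.

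General macrophage markers in liver depended on the library labelled halofuginone replicate 1. Of 16 pan-macrophage genes 2 were called lower and 0 higher over all 10 libraries, with a median log2 fold change of −0.10, and 7 were called lower without that library, where 21.6% of all genes were, with a median of −0.33. Of 6 Kupffer cell genes 0 were called in edgeR (0 at an unadjusted p under 0.05), with a median of −0.02, and 2 were called lower without it, with a median of −0.30. The called pan-macrophage genes included the chemokine receptor gene Cx3cr1 (−2.30, SE 0.42). Adgre1, the F4/80 gene, averaged 28.8 ± 3.57 CPM in the vehicle livers and 28.6 ± 8.99 CPM in the halofuginone livers (SD, n = 5 per arm), with a difference of −0.01 on the log2 scale (edgeR adjusted p 0.972). Replicate 1 had 43.7 CPM and replicates 2 to 5 had 24.8 ± 3.61 CPM (SD, n = 4), and without replicate 1 the difference was −0.24 (SE 0.12, edgeR adjusted p 0.144). The pan-macrophage sum was 721 CPM in halofuginone replicate 1, above the 462 to 572 CPM of vehicle and the 398 to 480 CPM of replicates 2 to 5.

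Of 5 monocyte genes in liver 2 were called lower and 0 higher, with a median log2 fold change of −0.82. The chemokine receptor gene Ccr2, which draws monocytes out of the marrow, fell from 2.71 ± 0.593 to 1.12 ± 0.397 CPM (−1.29, SE 0.26, edgeR adjusted p 0.0101), and Plac8 from 7.17 ± 1.10 to 4.07 ± 0.714 CPM (−0.82, SE 0.16, edgeR adjusted p 0.00798). The 5 genes summed to 13.7 to 16.8 CPM in vehicle and 5.72 to 14.1 CPM under halofuginone. Without replicate 1, 3 were called lower, where 21.6% of all genes were. Of 8 stellate cell and fibroblast genes 4 were called lower and 0 higher, among them the collagen gene Col1a1 (−1.77, SE 0.31). They summed to 261 to 355 CPM in vehicle and 175 to 287 CPM under halofuginone. The part of these cells in the values of the 10 genes was not tested.

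Divided by Adgre1 of the same library, 3 of the 10 genes did not overlap between the liver groups, and all were lower under halofuginone (Itgax, Atp6v0d2 and Lipa). This held for 5.17% of all genes in the lower direction and 0.26% in the higher one. The ratio of Atp6v0d2 to Adgre1 went from 0.164 ± 0.0232 to 0.0183 ± 0.0111 and that of Lipa from 7.05 ± 1.21 to 4.13 ± 0.703 (SD, n = 5 each). Replicate 1 lay below all vehicle libraries in both ratios. With other macrophage genes in place of Adgre1, the count lower without overlap was 4 of the 10 for Csf1r (7.64% of all genes), 3 for C1qa (7.9%), 2 for C1qb (4.91%) and 2 for C1qc (6.34%), Atp6v0d2 and Lipa each time. With these denominators 0 of the 10 were higher, against 0.276%, 0.504%, 0.731% and 0.877% of all genes. For Lipa the gap was narrow with C1qa, C1qb and C1qc. Its ratios in halofuginone replicate 1 were 2.996, 2.614 and 2.711, against lowest vehicle ratios of 2.999, 2.634 and 2.732. Lipa itself was inside the vehicle range in that library (205 CPM).

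Other genes of the lipid-associated program, 25 listed and 23 tested in liver, split, with 6 called lower and 2 higher. The galectin gene Lgals1 fell from 42.0 ± 12.4 to 5.12 ± 1.10 CPM (log2 fold change −3.04, SE 0.21), the fatty acid transporter Cd36 from 223 ± 21.8 to 67.3 ± 23.4 CPM (−1.73, SE 0.21), and the fatty acid binding protein Fabp4 from 20.7 ± 7.77 to 6.66 ± 1.38 CPM (−1.63, SE 0.24). The protease Ctsl rose from 520 ± 30.9 to 2724 ± 1264 CPM (2.39, SE 0.42). All 4 passed the edgeR threshold, and hepatocytes and other liver cells also express them. Without the library labelled halofuginone replicate 1, 10 of the 23 were called lower and 2 higher, beside 2684 and 2628 of all 12422 genes. In that fit the fatty acid binding protein Fabp5 rose from 7.49 ± 3.25 CPM (SD, n = 5) to 152 ± 114 CPM (n = 4). Its log2 fold change was 4.33 (SE 0.58, edgeR adjusted p 0.000244). Of 25 lysosomal genes, 8 were called lower and 2 higher, with Npc1, the cholesterol exporter, at 1.72 (SE 0.25) and the sulfatase Arsb at −0.89 (SE 0.11). Of 17 V-ATPase genes 1 was called, Atp6v1a at −0.40 (SE 0.09), and of 16 genes around TREM2 signalling and MiT/TFE factors 1 was called, Pparg at −1.26 (SE 0.25). Tyrobp, the TREM2 adaptor, was at −0.30 on the log2 scale (SE 0.19, edgeR adjusted p 0.259).

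In fat, 0 of the 10 genes were called by edgeR, where 0 of 14030 genes passed and the smallest adjusted p of any gene was 0.0887. At an unadjusted p under 0.05, 6 of the 10 were lower and 0 higher, against 7.91% and 5.5% of all genes. DESeq2 called 2 of the 10, Cd9 and Itgax, both lower, beside 3.48% of all genes in that direction. In 6 of the 10, Trem2, Cd9, Itgax, Mmp12, Lipa and Cd68, all 3 halofuginone libraries lay below all 3 vehicle libraries, as in 10.4% of all genes, and 0 of the 10 were higher without overlap, as in 10.2% of all genes. The median log2 fold change of the 10 was −1.04, against 0.012 for all genes tested. Without vehicle replicate 3, 3 of the 10 were lower and 0 higher at an unadjusted p under 0.05 in edgeR. Over all 14242 genes tested then, 1115 were lower and 657 higher. The median of the 10 was −0.52 without that library, against 0.030 for all genes tested.

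**Figure D2:**
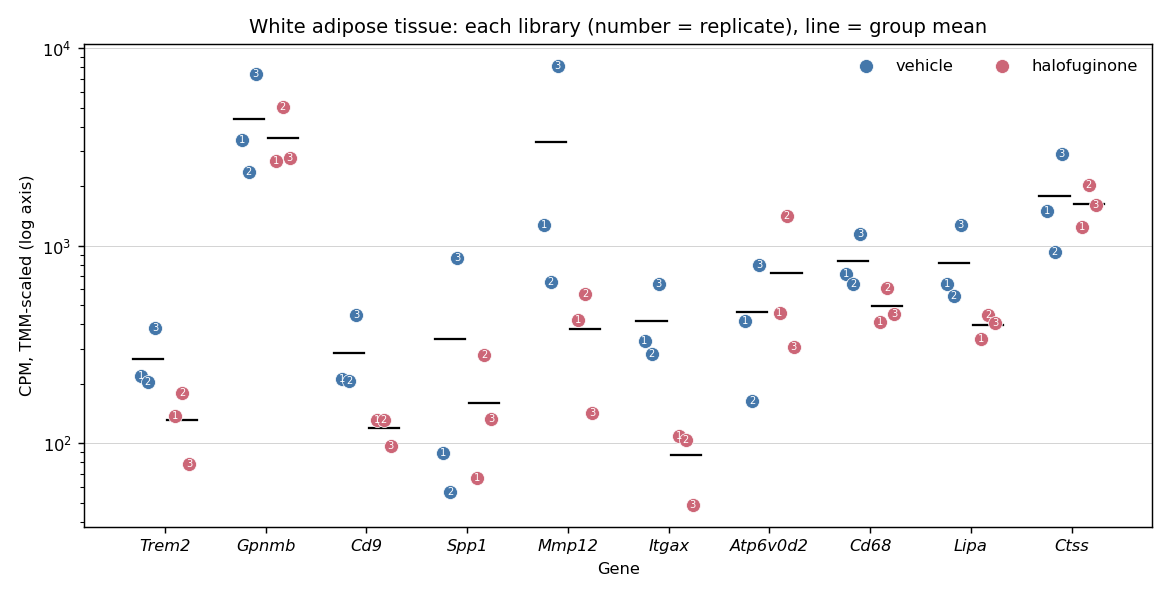
Level of each of the 10 genes in every library of white adipose tissue, as CPM on a log axis, with vehicle in blue and halofuginone in red, the replicate number inside each point and a line at the group mean. Vehicle replicate 3 is the highest vehicle library in all 10 genes and the highest of all 6 libraries in 9 of them.

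Vehicle fat varied widely. The SD of log2 CPM between the 3 vehicle libraries had a median of 0.74 over the 10 genes, against 0.32 over all genes tested and 0.26 over those that averaged 50 CPM or more. All 10 genes exceeded the median of all genes, and Spp1 (2.11), Mmp12 (1.88) and Atp6v0d2 (1.15) exceeded the 90th percentile of 0.89. The smallest were Cd68 (0.45) and Trem2 (0.50). In the 3 halofuginone libraries of fat the median over the 10 genes was 0.56, against 0.26 for all genes. In liver it was 0.26 in vehicle, against 0.19 for all genes, and 0.44 under halofuginone, against 0.28.

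**Figure D3:**
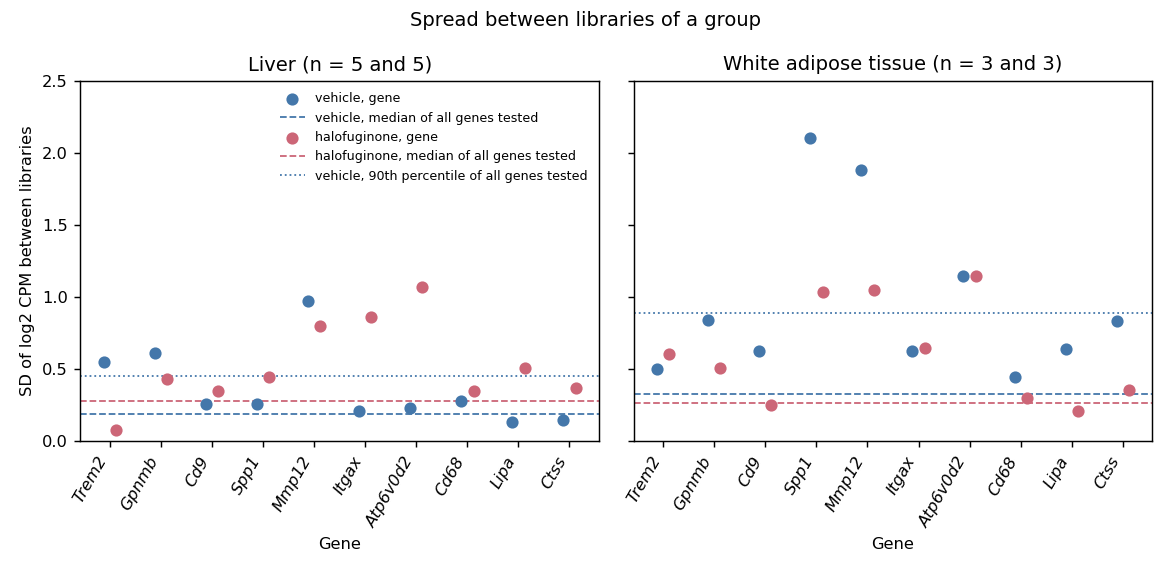
SD of log2 CPM between the libraries of a group for each of the 10 genes, in liver and fat, with vehicle in blue and halofuginone in red. Dashed lines are the medians over all genes tested in the same group, and the dotted line is the 90th percentile in vehicle. In vehicle fat all 10 points lie above the dashed line.

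Most of that spread came with 1 library. Vehicle replicate 3 was the highest vehicle library and replicate 2 the lowest in all 10 genes. Against the mean log2 level of replicates 1 and 2, replicate 3 was 12.2-fold higher in Spp1, 8.90-fold in Mmp12, 3.06-fold in Atp6v0d2, 2.60-fold in Gpnmb and 1.69-fold in Cd68, with a median of 2.30-fold over the 10 genes and 1.02-fold over all genes tested. Mmp12 alone took 0.763% of all counts in replicate 3, and 0.124% and 0.0666% in replicates 1 and 2. Without replicate 3 the median vehicle SD over the 10 genes was 0.27, and without replicate 2 or 1 it was 0.69 or 1.00.

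Other markers moved in the same library. The median over 16 pan-macrophage genes was 1.29-fold higher in vehicle replicate 3 than in replicates 1 and 2, with all 16 above, that of the 25 lipid-associated program genes 1.65-fold (22 above) and that of 6 proliferation genes 1.88-fold (all 6 above). The medians of 6 adipocyte genes and 6 endothelial genes were at 0.476 and 0.421 of replicates 1 and 2, with 0 of 6 above in either. Adipoq was at 991 CPM in replicate 3 and at 2543 and 2520 CPM in replicates 1 and 2. The 2 epididymis genes that passed the filter, Crisp1 and Adam7, were at 63.6 and 12.5 CPM in replicate 3, against at most 0.48 and 1.17 CPM in replicates 1 and 2. The part of these differences in the spread of the 10 genes was not tested.

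Among the surface proteins in fat, Itgax was at 330, 283 and 638 CPM in vehicle replicates 1 to 3 and at 109, 104 and 48.8 CPM under halofuginone. The groups were well apart, also without vehicle replicate 3. The log2 fold change was −2.26 (SE 0.43, edgeR unadjusted p 0.00129, adjusted p 0.156), and −1.81 (SE 0.35) without that library. Cd9 was at 211, 207 and 444 CPM in vehicle and at 131, 132 and 96.6 CPM under halofuginone, and Trem2 at 218, 203 and 383 CPM and at 137, 179 and 78.4 CPM. In both, vehicle replicates 1 and 2 were close together and above every halofuginone library. Their log2 fold changes were −1.26 (SE 0.34, edgeR adjusted p 0.219) and −1.03 (SE 0.37, edgeR adjusted p 0.320). Without vehicle replicate 3 they were −0.80 (SE 0.19) and −0.68 (SE 0.34).

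Gpnmb differed from these in fat. It was at 3413, 2356 and 7365 CPM in vehicle and at 2690, 5039 and 2771 CPM under halofuginone. The groups overlapped fully, since the lowest vehicle library was below all 3 halofuginone libraries. The log2 fold change was −0.32 (SE 0.47, edgeR adjusted p 0.816), and 0.28 (SE 0.34) without vehicle replicate 3.

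The secreted proteins had the widest spread. Mmp12 was at 1268, 656 and 8119 CPM in vehicle fat and at 422, 569 and 143 CPM under halofuginone. The groups did not overlap, but vehicle replicate 2 and halofuginone replicate 2 were close. The log2 fold change was −3.15 (SE 1.03, edgeR unadjusted p 0.0188, adjusted p 0.287), and −1.35 (SE 0.57) without vehicle replicate 3. Spp1 was at 89.5, 56.9 and 870 CPM in vehicle and at 66.4, 280 and 132 CPM under halofuginone. Halofuginone replicates 2 and 3 were above vehicle replicates 1 and 2, and the log2 fold change turned from −1.09 (SE 1.06) to 1.12 (SE 0.60) without it.

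Of the lysosomal genes in fat, Lipa was at 641, 553 and 1268 CPM in vehicle and at 335, 446 and 406 CPM under halofuginone, which is −1.05 on the log2 scale (SE 0.34, edgeR adjusted p 0.281). Cd68 was at 718, 638 and 1146 CPM in vehicle and at 413, 613 and 453 CPM under halofuginone, which is −0.76 on the log2 scale (SE 0.28, edgeR adjusted p 0.326). Both were lower in every halofuginone library, though in Cd68 vehicle replicate 2 and halofuginone replicate 2 nearly met. Without vehicle replicate 3 the log2 fold changes were −0.59 (SE 0.19) and −0.46 (SE 0.22).

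Ctss and Atp6v0d2 overlapped between the groups in fat. Ctss was at 1493, 923 and 2911 CPM in vehicle and at 1235, 2022 and 1604 CPM under halofuginone, which is −0.13 on the log2 scale (SE 0.43, edgeR adjusted p 0.930), and 0.42 (SE 0.30) without vehicle replicate 3. Atp6v0d2 was at 417, 164 and 801 CPM in vehicle and at 457, 1409 and 305 CPM under halofuginone. It was the only one of the 10 with its highest level in a halofuginone library, replicate 2. The log2 fold change was 0.65 (SE 0.72, edgeR adjusted p 0.755), and −0.23 without that library.

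**Figure D4:**
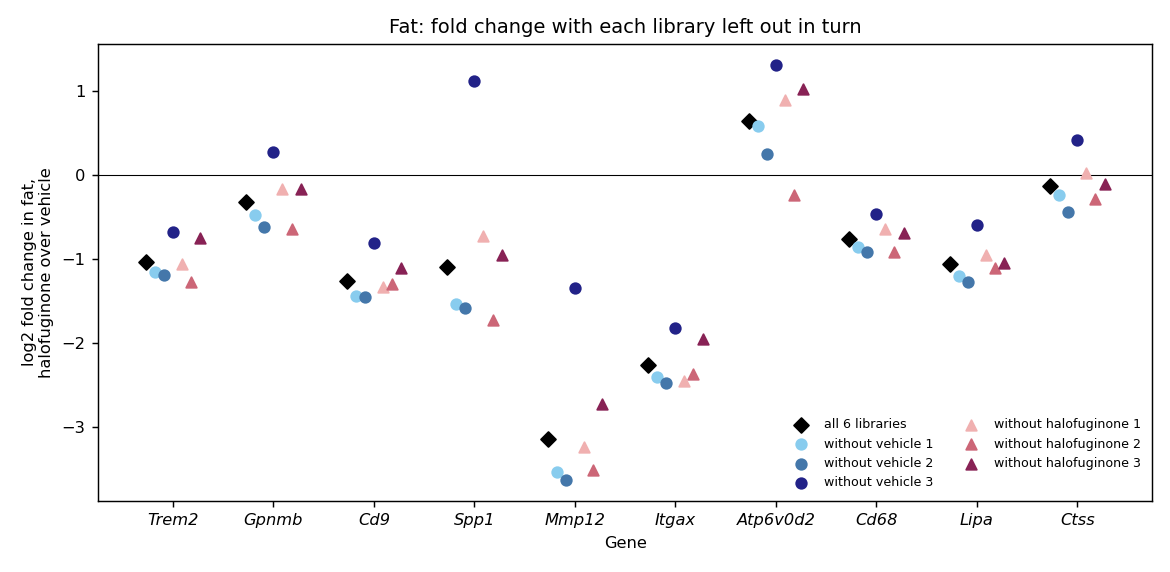
Log2 fold change of halofuginone over vehicle in fat for each of the 10 genes, with all 6 libraries (black diamonds) and with each library left out in turn (blue circles for vehicle, red triangles for halofuginone). Without vehicle replicate 3 the estimates of Gpnmb, Spp1 and Ctss lie above 0, and that of Itgax stays at −1.81.

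In fat the general macrophage markers had lower values under halofuginone. Of 16 pan-macrophage genes, 10 had an unadjusted p under 0.05 in the lower direction and 0 in the higher, with a median log2 fold change of −1.03, close to that of the 10 genes. Without vehicle replicate 3, 10 were lower and 0 higher by that measure, with a median of −0.72, against −0.52 for the 10 genes. Adgre1 was at 370, 334 and 451 CPM in vehicle and at 138, 123 and 138 CPM under halofuginone (−1.53, SE 0.17, edgeR adjusted p 0.0954). Csf1r, the receptor for macrophage colony-stimulating factor, was at 399, 435 and 535 CPM and at 114, 113 and 167 CPM (−1.80, SE 0.23). These genes varied less in vehicle than the 10 did, and the complement gene C1qc had a log2 fold change of −1.16. Tyrobp had a log2 fold change of −0.97 (SE 0.30, edgeR unadjusted p 0.0149, adjusted p 0.270).

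Relative to Adgre1 of the same library, the direction in fat changed. Gpnmb per Adgre1 was 9.22, 7.06 and 16.3 in vehicle and 19.6, 41.0 and 20.1 under halofuginone, and Ctss per Adgre1 was 4.04, 2.77 and 6.45 and then 8.98, 16.4 and 11.6. With Cd68 and Atp6v0d2, 4 of the 10 ratios were higher without overlap, and 1, that of Itgax, was lower. With Adgre1 itself lower, 83% of all genes were higher in this ratio without overlap and 0.207% were lower, so 4 of 10 is below the share over all genes. With Csf1r as the denominator 5 were higher and 0 lower (86.9% and 0.0927% of all genes), and with C1qa 0 and 0 (76% and 0.364%). With C1qb or C1qc 1 was higher (Ctss) and 1 lower (Itgax), against 70.9% and 0.727% of all genes for C1qb and 75.2% and 0.556% for C1qc. In each of these ratios the share of the 10 that was higher lay below that of all genes.

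Of the 25 other lipid-associated program genes, 4 had an unadjusted p under 0.05 in the lower direction in fat and 0 in the higher, with a median log2 fold change of −0.30. They were Tyrobp, the scavenger receptor gene Olr1 (−2.13, at 1.77 ± 1.09 CPM in vehicle, SD, n = 3), Lgals1 (−0.44) and the lipoprotein lipase gene Lpl (−0.99). Without vehicle replicate 3, 2 of the 25 were lower and 2 higher by that measure, with a median of −0.07. Of 25 lysosomal genes 7 were lower and 0 higher by the same measure, with a median of −0.14. Among these were the mannosidase gene Man2b1 (−1.30, SE 0.19), the galactosidase gene Glb1 (−0.87, SE 0.14), Arsb (−1.14, SE 0.24) and the glucuronidase gene Gusb (−0.74, SE 0.21). Without vehicle replicate 3, 6 of the lysosomal genes were lower and 1 higher, with a median of −0.03. The V-ATPase genes had a median of 0.07, with 1 of 17 lower (Atp6v0a1, −0.40) and 1 higher (Atp6v1c1, 1.20), and Atp6v0d1 had −0.04. Without vehicle replicate 3, 0 of the 17 were lower and 2 higher, with a median of 0.24. In the list around TREM2 signalling, 4 of 17 genes were lower and 2 higher at an unadjusted p under 0.05 in edgeR, with a median of −0.39. Among these, the kinase gene Pik3cg (−1.04) and the phosphatase gene Inpp5d (−0.88) were lower and the sterol exporter Abcg1 (0.64) was higher. Without vehicle replicate 3, 2 of the 17 were lower and 1 higher, with a median of −0.06.

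Of 5 monocyte markers in fat 0 were called in edgeR, and 2, Chil3 (2.62, SE 0.57) and Plac8 (1.89, SE 0.53), had an unadjusted p under 0.05, both in the higher direction. The median log2 fold change of the 5 was 1.89, and their summed levels overlapped, at 37.8 to 65.9 CPM in vehicle and 56.7 to 253 CPM under halofuginone. The summed level of 7 epididymis genes was 1.08 to 76.2 CPM in vehicle fat and 0.837 to 16.1 CPM under halofuginone. That of 8 dendritic cell genes was 165 to 209 CPM in vehicle fat and 206 to 368 CPM under halofuginone. The part of these cells in the values of the 10 genes was not tested.

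**Figure D5:**
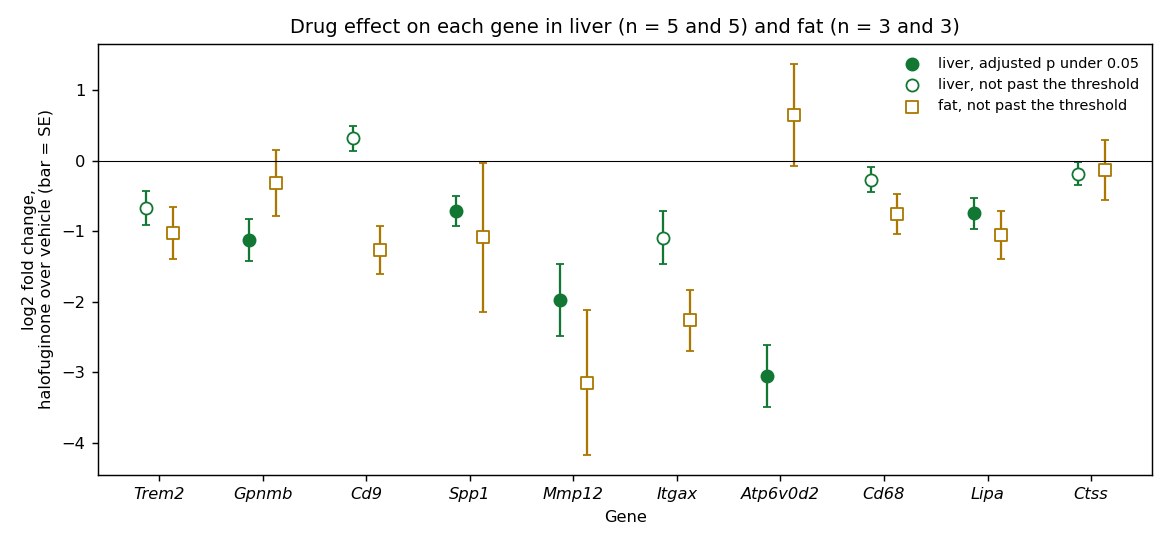
Log2 fold change of halofuginone over vehicle for each of the 10 genes, in liver (green circles) and fat (brown squares), with bars of 1 SE. Filled symbols passed an adjusted p of 0.05 in edgeR, which 5 genes did in liver and 0 in fat. Cd9 and Atp6v0d2 lie on opposite sides of 0 in the 2 tissues.

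The drug effect was compared between tissues by subtracting the liver effect from the fat effect in 1 edgeR fit of all 16 libraries, which takes all libraries as independent. Of 14853 genes 0.949% were called, and among the 10 genes 2 were, Cd9 and Atp6v0d2. For Cd9 the contrast was −1.59 (SE 0.36, edgeR adjusted p 0.0485), from a log2 fold change of 0.32 in liver and −1.26 in fat. For Atp6v0d2 it was 3.68 (SE 0.83, edgeR adjusted p 0.0485), from −3.05 in liver and 0.65 in fat. Both calls are close to the threshold, and each was lost in 15 of the 22 alternatives, with no change of direction. The adjusted p-values of Cd9 ran from 0.0178 to 0.0975 and those of Atp6v0d2 from 0.00617 to 0.114 on leaving out single libraries, the lowest without the library labelled halofuginone replicate 1 of liver. They were 0.176 and 0.188 with a replicate block, 0.0505 and 0.0516 with DESeq2 size factors, and 0.00254 and 0.00155 in DESeq2. The other 8 were not called, and the edgeR adjusted p of Itgax (−1.17, SE 0.57), the next smallest, was 0.341. Genes such as Mmp12 and Lipa that fell in liver and were not called in fat are therefore not shown to differ between the tissues.

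The genes most like the 10 were found by correlating each gene's log2 CPM with the mean of the 10, over the libraries of 1 tissue and both arms. In liver, over 10 libraries and 8681 genes that averaged 5 CPM or more, these were the lysosomal transporter gene Mfsd1 (Pearson r 0.981), Lima1 (0.976), Stom (0.976), Chmp3 (0.976) and Tmem50b (0.975). Mfsd1 was at 80.9 to 95.6 CPM in vehicle, at 81.4 CPM in halofuginone replicate 1 and at 57.9 to 67.5 CPM in replicates 2 to 5. In fat, over 6 libraries and 10777 genes, they were Gng10 (0.991), Serpinb6a (0.990), the stress-induced transcription factor gene Atf3 (0.989), 2010111I01Rik (0.989) and the GCN2 kinase gene Eif2ak4 (0.988). Atf3 was at 148, 108 and 310 CPM in vehicle and at 87.3, 132 and 63.9 CPM under halofuginone, again highest in vehicle replicate 3. With so few libraries, which share depth and arm, such values describe these libraries only.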

How the data were processed

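Poly(A)-selected RNA of liver and white adipose tissue was sequenced after oligo(dT) capture and a NEBNext Ultra kit, per the labels' protocols. The submitters' processing notes name fastp 0.18.0, Bowtie2 2.2.8, HISAT2, StringTie 1.3.1, RSEM and the build mm39. The annotation release, strand setting and handling of reads shared by paralogs, antisense or overlapping genes are not given in the sources used here, so such genes are uncertain. The authors deposited 1 table per tissue that gives counts and FPKM (scaled by gene length and by library size) for every library, per the file headers. The deposited counts are whole numbers and may be rounded RSEM estimates.

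All 16 libraries were grouped by their titles, and 22267 of 22322 identifiers had a symbol. The 10 genes, the other lists (22 besides the 10) and the motifs were chosen with earlier results of these data known. R 4.3.3 with edgeR 4.0.16 was used for a fit per tissue (low counts removed by filterByExpr, TMM scaling, two-sided quasi-likelihood tests by glmQLFit and glmQLFTest, adjusted by Benjamini-Hochberg over all genes, threshold 0.05), after a check on simulated data. SE is the absolute log2 fold change over the square root of F. CPM is counts over the TMM-scaled library size, and log2 CPM, computed from the deposited counts, has a prior count of 2. A count of 0 allows up to 3 counts, or 0.0983 to 0.180 CPM, which covers counting error only. All libraries counted as separate samples. Any 2 of a group differed beyond sampling noise (chi-square per degree of freedom at least 31.6). This shows only that none repeats another, not that each came from its own animal.

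Alternatives were DESeq2 1.42.0, its size factors, library size alone, other filters, limma 3.58.1 on log2 of FPKM plus 1, a replicate block and leaving out each library. Genes named outside the 10 were, per list and tissue, at most 4, those called with the smallest p or, in fat, those with the smallest unadjusted p, and the 5 genes most like the 10. Where other genes are named (Atp6v0d1, Adgre1, Csf1r, Tyrobp, Adipoq, Crisp1, Adam7, Fabp5, Krt19, Krt7, Epcam), they serve as references from the lists. Atp6v0d2 had no entry in the promoter table. One gene of the pan-macrophage list is counted in its totals but is not reported here by name.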

Additional observations from a re-analysis of the deposited data

Results flagged for a closer look

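Single libraries stood far from the other 4 of their group in 5 of the 20 groups of liver values searched (10 genes, 2 arms). For a single group chance gives about 1 in 20. The groups share the same libraries and all 5 came from halofuginone replicates 1 and 2, so they are not independent and cannot be set against that share. In the library labelled halofuginone replicate 1, Mmp12 was at 8.84 CPM with the next highest at 3.24, Itgax at 4.22 CPM with the next at 1.57, and Lipa at 205 CPM with the next at 108. In halofuginone replicate 2, Cd9 was at 30.6 CPM with the next at 18.5, and Spp1 at 40.2 CPM with the next at 23.4. The groups of 3 in fat were too small for this search.

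By the test of the difference itself, the drug effect in fat and in liver was called different for Cd9 (fat effect minus liver effect −1.59 on the log2 scale) and for Atp6v0d2 (3.68), each with an edgeR adjusted p of 0.0485. Each of these calls was lost in 15 of the 22 alternatives, with adjusted p-values of up to 0.176 and 0.188 under a replicate block.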

How the results depend on the processing

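For the 10 genes, no fold change turned sign in liver under any of the 17 alternatives run. In fat, limma on log2 FPKM turned Ctss to 0.064. DESeq2 called 723 genes and 2 of the 10 in fat, and with no low-count filter 1 gene was called. Leaving out single libraries gave −0.64 to 0.28 for Gpnmb, −1.72 to 1.12 for Spp1, −0.44 to 0.42 for Ctss, −0.23 to 1.32 for Atp6v0d2 and 0 to 1 genes called in fat. The median vehicle SD of log2 CPM over the 10 genes ran from 0.27 to 1.00 on leaving out 1 library, and from 0.68 to 0.74 with other scalings and FPKM. In liver, leaving out single libraries gave 1275 to 5312 genes called and 1 to 8 of the 10 called lower. The cause of these shifts was not tested.

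In the contrast of fat and liver, DESeq2 called 687 genes and DESeq2 size factors left 0 of the 10 called. Library size alone turned Ctss to −0.014. Leaving out single libraries gave 34 to 1053 genes called, 0 to 2 of the 10 called, and contrasts of −1.02 to 1.78 for Spp1, −1.65 to 0.59 for Mmp12, −0.51 to 0.12 for Lipa and −0.25 to 0.57 for Ctss. Scaling by library size alone moved the median over all genes tested (log2) from 0.017 to 0.17 in liver and from 0.012 to 0.076 in fat.

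Replicate numbers are shared between arms. Deviations of same-numbered libraries had correlations of −0.16 to 0.057 in liver and −0.57 to 0.11 in fat. Those of differently numbered libraries ran from −0.15 to 0.18 and from −0.46 to 0.52. With so few libraries this cannot settle whether the numbers mark pairs, and the main fits did not take them as pairs. With a replicate block 3 of the 10 were called in liver (1901 genes, against 2850 without it), 0 in fat, and 0 in the contrast (20 genes, against 141), where Spp1 turned to 0.42. The biological coefficient of variation was 0.34 in fat, with 3 libraries a group, and 0.23 in liver, with 5.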
